A study of Mus musculus with 6 samples.

Results

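The cytochrome P450 genes of the mouse were examined in alveolar type II cells of mice with a deletion of Stat3 (Stat3Δ/Δ, Stat3-deleted in the plots) and of control mice. Members were taken as every probe set that names 1 gene alone with a symbol made of Cyp, a family number, a subfamily letter and a gene number. This rule found 72 genes with 95 probe sets, among 18193 genes and 45037 probe sets tested. Of the 72 genes, 54 are read by 1 probe set, 13 by 2 and 5 by 3. A further 4 probe sets name several P450 genes at once and are not reported here, which leaves Cyp2a4 and Cyp2a5 without a value.

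A pair of genotypes was compared, each with 3 pools of cells, and every pool had its own MOE430 array. The Stat3Δ/Δ cells came from triple-transgenic mice that carried SP-C-rtTA, (tetO)7CMV-Cre and Stat3flx/flx, in which the surfactant protein C (SP-C) promoter directs the doxycycline-dependent activator to respiratory epithelium and Cre then removes a floxed exon of Stat3. The controls were littermates, labelled SP-C-rtTA/(tetO)7CMV-Cre and described in the study as carrying Stat3flx/flx with only 1 of the transgenes. All dams were fed doxycycline during gestation and the postnatal weeks, so that both groups were exposed to it. Mice were 8 weeks old and matched for sex, and each pool joined the type II cells of 3 mice, freshly isolated with collagenase and differential plating. Values are linear signal intensities, scaled on every array to a trimmed mean of 1500.

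P450 enzymes are membrane-bound haem proteins that insert an oxygen atom into their substrates with electrons from a reductase. Enzymes of families 1 to 3 mainly oxidise drugs, smoke constituents and other foreign compounds, those of family 4 hydroxylate fatty acids and eicosanoids, and others carry out fixed steps in the making and breakdown of steroids, bile acids, retinoic acid and vitamin D. In the lung, they are found above all in the secretory cells of the airways and in type II cells, where they activate inhaled toxicants as well as clear them. Foreign compounds induce many of them through the aryl hydrocarbon receptor (AHR), which recognises the core GCGTG in the xenobiotic response element, or through the nuclear receptors CAR and PXR.

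The isolates were checked before the P450 genes were read. Of 4 probe sets for Stat3, the deleted gene, 2 were lower on each Stat3Δ/Δ array than on all control arrays (log2 fold changes of -0.71 and -0.80, limma adjusted p of 0.532 and 0.502). The remaining pair gave -0.05 and 0.60. The type II markers Sftpc, Sftpb and Sftpa1 were present on all 6 arrays, with 87021 as the lowest signal. Markers of other cells differed between the groups. The summed signal of 7 ciliated cell markers ran from 22892 to 34095 on Stat3Δ/Δ arrays and from 25326 to 59964 on control arrays, and that of 6 fibroblast markers from 4949 to 10426 and from 15768 to 30763. For 7 alveolar macrophage markers the sums were 110572 to 149406 and 79390 to 97027, and for 5 neutrophil markers 20884 to 28215 and 4950 to 13198. Such sums follow their brightest members, as Tppp3 for ciliated cells (mean signal 24440) and Chil3 for macrophages (69880). The groups overlapped for Tppp3, while 5 of the 7 ciliated markers were lower on every Stat3Δ/Δ array. Of the 7 macrophage markers, 5 were higher on every Stat3Δ/Δ array. The number that opens each sample title, of unstated meaning, is common to 3 arrays, those of control pool 3 and of Stat3Δ/Δ pools 1 and 2. Control pools 1 and 2 carry another number, and Stat3Δ/Δ pool 3 carries its own. Differences are therefore given for all 6 arrays and within the 3 arrays that share the number. As the remainder, they are given for pool 3 of the Stat3Δ/Δ group against the mean of control pools 1 and 2. With the number as a block in the fit, the fold change is the same as within the shared number, since the other numbers each hold a single group. It then rests on control pool 3 as the only control array. Whether a call lost under the block follows from the number or from fewer arrays was not tested.

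The mRNAs of 8 P450 genes were lower in Stat3Δ/Δ cells than in controls at an unadjusted p up to 0.05 with a change of 1.5-fold or more, and none was higher. These are Cyp2s1, Cyp1a1, Cyp2d9, Cyp7a1, Cyp2c23, Cyp4f15, Cyp1b1 and Cyp4b1, with 9 probe sets between them. No P450 probe set passed the false discovery rate (FDR) of 10%, the smallest adjusted p being 0.448 by limma, and the methods' t-test called 0 as well. Over all probe sets, 0.00222% passed with the FDR. Without the FDR, 4.22% of all probe sets were lower and 4.14% higher, whereas 9.47% and 0.0% of the P450 probe sets were. Counting each gene once, by the brightest of its probe sets, 11.1% of the P450 genes were lower, against 5.56% of all genes, and 0 were higher, against 2.19%. Under a plain rule on the deposited signals, 8 P450 probe sets (8.42%) were lower on every Stat3Δ/Δ array than on any control array, close to the 6.39% of all probe sets, and 4 (4.21%) were higher on every array, against 7.13%. The count of 9 depended on single arrays. It was 4 of 95 without Stat3Δ/Δ pool 2, beside 3.38% of all probe sets, and 4 without control pool 2, beside 3.16%. It was 5 without control pool 1, beside 3.17%, and 13 without Stat3Δ/Δ pool 3, beside 5.28%. When the title number was a block in the fit it was 3 of 95, beside 3.06% of all probe sets. Of the 9, that block kept 2, Cyp2s1 and Cyp1a1, and 7 lost the call, while a dim probe set of Cyp2a12, named after its values were seen, gained a lower call. The count of 0 became 3 without control pool 1, beside 2.92% of all probe sets. It became 1 without control pool 2, control pool 3 or Stat3Δ/Δ pool 3, beside 3.26%, 6.5% and 5.01%. With the title number as a block, dim probe sets of Cyp1b1 and Cyp4a14 gave log2 fold changes of 0.91 and 0.87. Cyp4a14 is named after its values were seen. The shares describe the family beside the array and were not tested, since its members are not replicates.

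**Figure D1:**
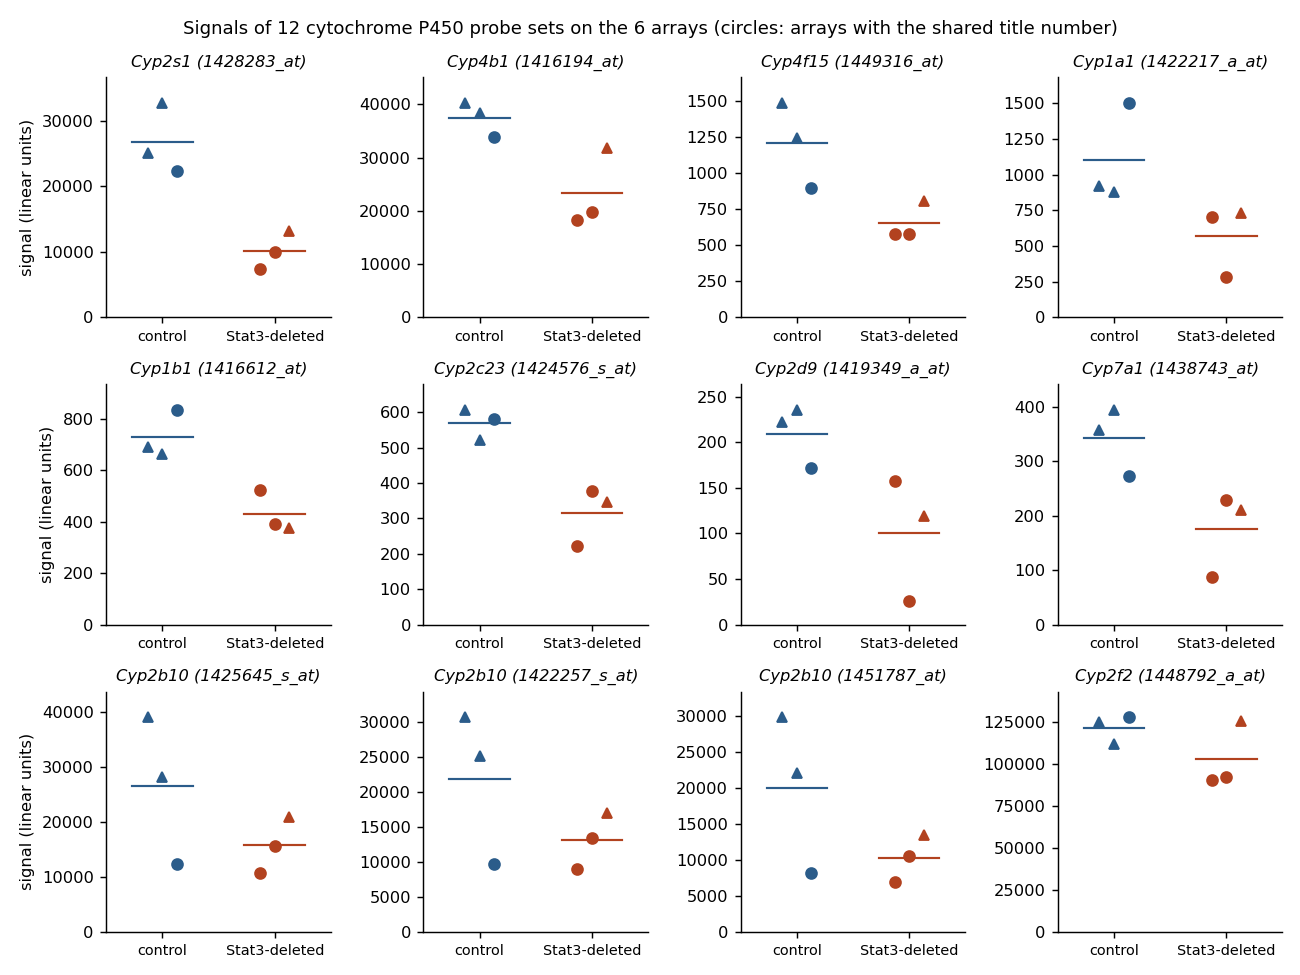
Deposited signals (vertical axes, linear units, starting at 0) of 12 P450 probe sets on the 3 control arrays (blue) and the 3 Stat3-deleted arrays (red), in the order of pools 1 to 3 from left to right, with lines at the group means; circles mark the 3 arrays with a common title number and triangles the others. The panels of Cyp2s1, Cyp4b1, Cyp4f15, Cyp1a1, Cyp1b1, Cyp2c23, Cyp2d9 and Cyp7a1 show no overlap between groups, while in all 3 panels of Cyp2b10 the circle of control pool 3 lies among the Stat3-deleted arrays and Cyp2f2 overlaps.

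Cyp2s1, a P450 of airway and alveolar epithelium that is inducible through AHR, had the largest difference of the family. Its signals were 7366.8, 9980.7 and 13116.2 in Stat3Δ/Δ pools 1 to 3 and 25034.1, 32689.2 and 22350.6 in control pools 1 to 3. The highest Stat3Δ/Δ pool therefore lay well below the lowest control pool, and the controls had 2.63 times the mean signal. On the log2(signal + 69.9) scale, on which all fold changes are given here and which understates those of dim probe sets, the level was 13.28 ± 0.39 (SD, n = 3) against 14.65 ± 0.27 (SD, n = 3). The log2 fold change was -1.37 (standard error, SE, 0.30, limma adjusted p = 0.448). It was -1.41 within the shared title number and -1.08 for the other arrays. Cyp2s1 stayed on the same side of the unadjusted threshold under all 16 alternative settings, with values from -1.55 to -1.18 when 1 array at a time was left out. In bulk RNA such as this, fewer cells of a type and less RNA per cell cannot be told apart, which applies to every P450 below.

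The AHR target genes of family 1 gave mixed probe sets. Cyp1a1, which oxidises polycyclic aromatic hydrocarbons and is the classical readout of AHR, had signals of 704.7, 285.0 and 729.8 in Stat3Δ/Δ pools and 923.0, 876.2 and 1502.1 in control pools. The groups did not overlap, but Stat3Δ/Δ pool 2 was far below its companions and control pool 3 far above its own. The log2 fold change was -0.99 (SE 0.38, limma adjusted p = 0.551), with -1.60 within the shared title number and -0.34 for the other arrays. Leaving out pool 2 of the Stat3Δ/Δ group, or pool 1 or 3 of the controls, moved the unadjusted p above 0.05, with values of -0.62, -1.03 and -0.81. Cyp1b1, which oxidises oestradiol and polycyclic aromatic hydrocarbons, had 3 probe sets. The one with the highest signal read 523.6, 390.3 and 374.2 in Stat3Δ/Δ pools and 692.0, 662.1 and 834.2 in control pools, without overlap. Its log2 fold change was -0.79 (SE 0.24, limma adjusted p = 0.502), with -0.80 within the shared title number and -0.85 outside it, and the call was lost with that number as a block. The second, with signals of 77.5 to 174.3 against 133.3 to 304.5, gave -0.78 and overlapped. It lost the call with the title number as a block (-0.97) and when pool 1 or 2 of the Stat3Δ/Δ group or pool 2 or 3 of the controls was left out, at -0.60, -0.73, -0.57 and -0.79. The third, dimmer again, gave 0.11. Cyp1a2, the relative of Cyp1a1 that is typical of liver, had a signal of at most 105.4 on any array and a log2 fold change of 0.07, a gene named after its values were seen. For the receptor itself, Ahr gave -0.14 (SE 0.38), its partner Arnt 0.11 and the repressor Ahrr, at signals of 4.7 to 132.0, gave 0.65, and none passed the unadjusted test.

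Cyp2b10 and Cyp2f2, with Cyp2s1 the P450s of families 1 to 3 with the highest signals here, did not pass. Cyp2b10, a CAR target that oxidises many drugs and is made in the lung without induction, has 3 probe sets, of which the pair marked _s_at can also bind transcripts of close relatives. The brightest read 10663.1, 15685.7 and 20957.8 in Stat3Δ/Δ pools and 39036.5, 28252.0 and 12262.9 in control pools. Control pools 1 and 2 were above all Stat3Δ/Δ pools, and control pool 3 was among them. The 3 probe sets gave log2 fold changes of -0.58, -0.57 and -0.78 (limma adjusted p of 0.744, 0.750 and 0.700), but 0.09, 0.17 and 0.06 within the shared title number and -0.62, -0.68 and -0.89 for the other arrays. Without control pool 3 they were -1.01, -1.04 and -1.29 and all 3 passed the unadjusted threshold. Leaving out control pool 1 moved them the other way, to -0.27, -0.29 and -0.42, as did leaving out Stat3Δ/Δ pool 1, to -0.34, -0.34 and -0.53, so that single arrays set the size of the difference in both directions. Cyp2f2, the enzyme of club cells that activates naphthalene to its toxic epoxide, read 90620.8, 92138.0 and 125492.0 in Stat3Δ/Δ pools and 125068.5, 111688.1 and 127728.5 in control pools. Its groups overlapped, and the log2 fold change of -0.14 had a 95% interval from -0.68 to 0.39 (limma adjusted p = 0.896). The interval holds both no difference and a loss of over 1.5-fold. The value depended on the scaling, being -0.26 with no normalization between arrays and -0.40 with arrays centred on their medians, and passed under neither.

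Among the other P450s that act on foreign compounds, Cyp2c23 and Cyp2d9 were lower. Cyp2c23, an epoxygenase of arachidonic acid, is read by a probe set marked _s_at, with 221.5, 378.8 and 346.1 in Stat3Δ/Δ pools and 606.5, 523.3 and 582.1 in control pools. The groups were well apart, with a log2 fold change of -0.88 (SE 0.29, limma adjusted p = 0.516), -0.87 within the shared title number and -0.74 outside it. The call was lost with the title number as a block, and without control pool 1, at -0.78. Cyp2d9, a testosterone hydroxylase of male liver, was dim, with 157.4, 25.7 and 118.7 against 222.1, 235.2 and 171.2. Its log2 fold change was -0.94 (SE 0.35, limma adjusted p = 0.545), and the call was lost with the title number as a block (-0.73) and without Stat3Δ/Δ pool 2 or control pool 1 or 2, at -0.60, -0.86 and -0.86. Its signal lay below the median of all probe sets' mean signals, 333.9, and 17 of the 49 probe sets of its class lay above it. The class as a whole, 41 genes, had a median log2 fold change of -0.29, with 37 of 49 probe sets below 0. At the unadjusted threshold 6 were lower (12.2%, beside 4.22% of all probe sets). The median was, however, 0.04 within the shared title number and -0.23 for the other arrays.

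Of the fatty acid hydroxylases, Cyp4b1 and Cyp4f15 were lower and the rest were not. Cyp4b1, a lung P450 that hydroxylates medium-chain fatty acids and activates plant toxins such as 4-ipomeanol, had signals of 18311.1, 19713.5 and 31899.0 in Stat3Δ/Δ pools and 40290.0, 38447.6 and 33816.7 in control pools. The groups came close, since Stat3Δ/Δ pool 3 almost reached control pool 3. The log2 fold change was -0.64 (SE 0.27, limma adjusted p = 0.582), with -0.76 within the shared title number and -0.27 outside it. It lost the call in 8 of 16 alternatives, among them the block on the title number and those that left out pool 1 or 2 of the Stat3Δ/Δ group or pool 1, 2 or 3 of the controls, at -0.53, -0.55, -0.63, -0.61 and -0.67. Cyp4f15, of a subfamily that inactivates leukotriene B4, had 576.3, 576.6 and 809.3 against 1489.9, 1248.7 and 897.2, again with pool 3 of each group nearest to the other group. Its log2 fold change was -0.88 (SE 0.32, limma adjusted p = 0.534), -0.60 within the shared title number and -0.73 outside it. The call was lost with the title number as a block and without Stat3Δ/Δ pool 1 or 2 or control pool 1 or 2, at -0.78, -0.80, -0.66 and -0.84.

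The other members of family 4 showed no common direction. Cyp4v3, an omega-hydroxylase of fatty acids, had 1 probe set at -0.14 (SE 0.27) and another at 0.19 (SE 0.24). Cyp4f18, the leukotriene B4 hydroxylase of mouse neutrophils, had signals of 1232.5, 2086.3 and 2102.1 in Stat3Δ/Δ pools and 1130.2, 1895.0 and 1675.7 in control pools, a log2 fold change of 0.16 (SE 0.31). Its groups overlapped. The 5 neutrophil markers ranged from -0.06 for Camp, through 0.48 for Ngp and 0.91 for Csf3r, to 1.68 for S100a8 and 1.88 for S100a9, and the last 3 passed the unadjusted threshold. Over the 14 fatty acid genes and their 19 probe sets the median was 0.08, with 9 below 0 and 10 above.

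The P450s with fixed steps in sterol, steroid, retinoid and vitamin D metabolism were mostly dim. Cyp7a1, the rate-limiting enzyme of bile acid synthesis in liver, was lower by 1 of 2 probe sets, with signals of 87.7, 228.3 and 211.1 against 357.9, 394.0 and 273.7 and a log2 fold change of -0.92 (SE 0.35, limma adjusted p = 0.551). It was -0.67 within the shared title number and -0.83 outside it, and the call was lost with the title number as a block and without Stat3Δ/Δ pool 1 or control pool 1 or 2, at -0.60, -0.83 and -0.82. The other Cyp7a1 probe set gave -0.24. Cyp39a1, which hydroxylates oxysterols, had 2677.6, 2518.4 and 2339.6 against 2116.0, 2226.9 and 3005.3 and a log2 fold change of 0.03 with a 95% interval from -0.54 to 0.60. Cyp27a1, which makes 27-hydroxycholesterol, gave 0.0013 with an interval from -0.62 to 0.62. These intervals leave room for a change of up to about 1.5-fold either way. The class of 6 sterol and bile acid genes had a median of -0.21 over 10 probe sets, 7 of them below 0.

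No steroid hormone, retinoid or vitamin D gene passed, and none of their probe sets had a mean signal above 333.9. Cyp11a1, which cleaves the cholesterol side chain, gave 0.17 by its brightest probe set, and its 3 Stat3Δ/Δ signals, 273.2 to 297.5, lay above the 3 control signals, 184.0 to 245.9. Cyp21a1 and Cyp11b1, hydroxylases of the adrenal steroid pathway, gave -0.31 and -0.18 by their brightest probe sets. The second Cyp21a1 probe set gave 0.84 (SE 0.49), the highest value of the family, so that the pair had opposite signs, and neither passed. Without Stat3Δ/Δ pool 3, the first was -0.66 and passed the unadjusted threshold. Cyp26b1 and Cyp26a1, which break down retinoic acid, gave -0.85 (SE 0.62) and -0.14. The value of Cyp26b1 ranged from -0.33, with control pool 3 left out, to -1.38, with Stat3Δ/Δ pool 1 left out, and was -1.80 within the shared title number. Cyp2r1, a vitamin D 25-hydroxylase, gave -0.17. Cyp20a1, an orphan enzyme with no settled substrate, had 3 probe sets at -0.12, 0.31 and 0.05. The middle one was higher on every Stat3Δ/Δ array, 594.4 to 677.5 against 396.3 to 524.2, as were dim probe sets of Cyp2u1, a fatty acid hydroxylase, at 145.4 to 252.5 against 87.7 to 109.5, and of Cyp2d10, at 18.3 to 41.1 against 12.4 to 17.9. The probe sets of Cyp2u1 and Cyp2d10 are named after their values were seen, and none of these passed the unadjusted test.

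**Figure D2:**
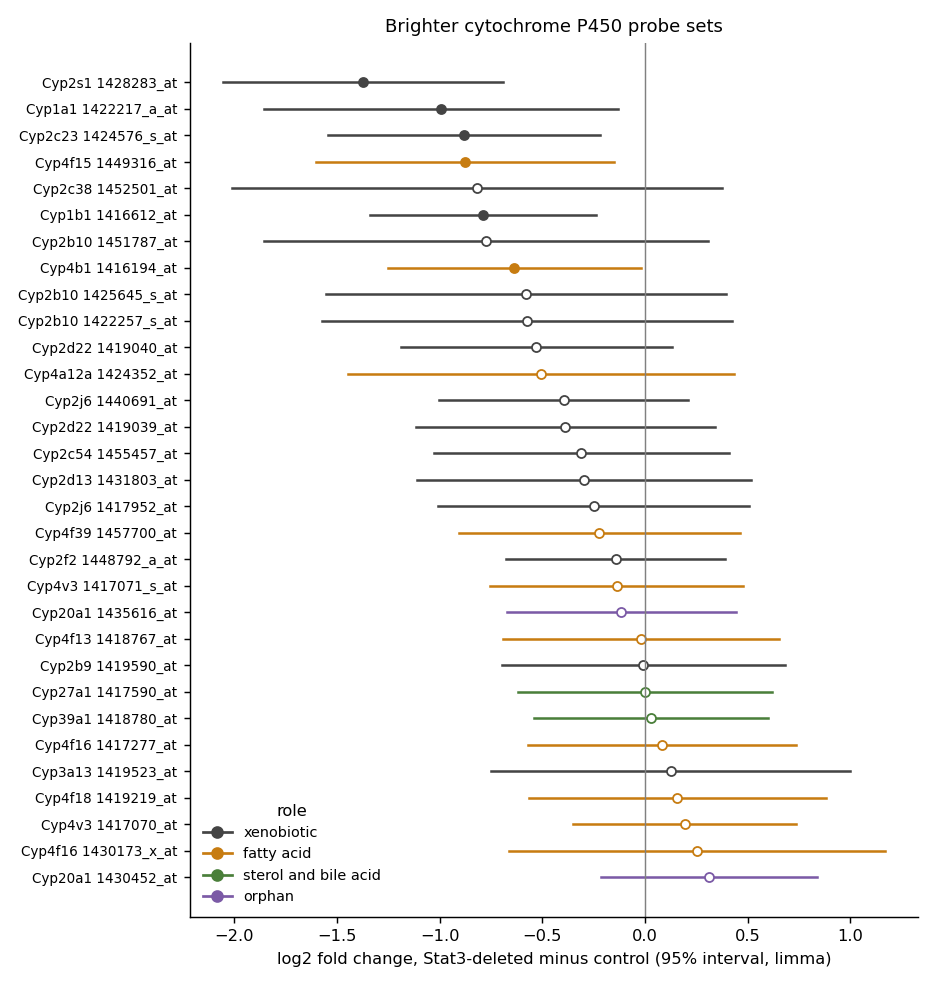
Log2 fold change (horizontal axis, Stat3-deleted minus control) with its 95% interval from limma for the 31 P450 probe sets whose mean signal is above the median of all probe sets, coloured by role; filled points pass the unadjusted threshold of p 0.05 and 1.5-fold. The 6 filled points, from Cyp2s1 at -1.37 to Cyp4b1 at -0.64, all lie below 0, and 23 of the 31 points do.

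Across the whole family the values leaned below 0. The 95 probe sets had a median log2 fold change of -0.15, with 62 below 0 and 33 above. Over all probe sets the median was -0.02, with 23276 of 45037 below 0. With 1 probe set for each gene the medians were -0.16 and -0.08. The lean was larger among the 31 probe sets, of 24 genes, with a mean signal above 333.9, where the median was -0.30 and 23 were below 0, beside -0.01 over all such probe sets. It was smaller within the arrays that share a title number, at -0.04, than in all 6 arrays, and -0.12 in the others. The lower calls lay on 6 of 31 brighter probe sets (19.4%), beside 3.98% of all brighter probe sets. They lay on 3 of 64 dimmer ones (4.69%), near the 4.22% of the whole array. The cut was on the mean of all 6 arrays, so that high control signals could carry a probe set past it. Among the 6, Cyp2c23 read 221.5, 378.8 and 346.1 in Stat3Δ/Δ pools and 606.5, 523.3 and 582.1 in control pools. The larger lean and share of the brighter members draw in part on such probe sets and were not tested.

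**Figure D3:**
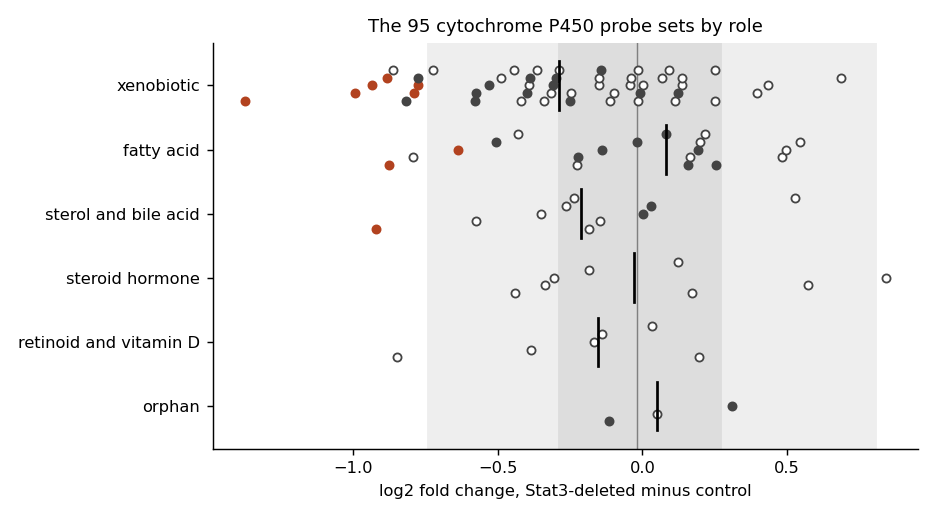
Log2 fold change (horizontal axis, Stat3-deleted minus control) of each of the 95 P450 probe sets, in rows by role, with a black bar at each row's median; filled points have a mean signal above the median of all probe sets, open points do not, and red points are lower at the unadjusted threshold of p 0.05 and 1.5-fold. The dark grey band runs from the 25th to the 75th and the light one from the 5th to the 95th percentile of all 45037 probe sets, whose median is the thin line, and the 9 red points lie to the left of the dark band, 6 of them in the xenobiotic row.

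**Figure D4:**
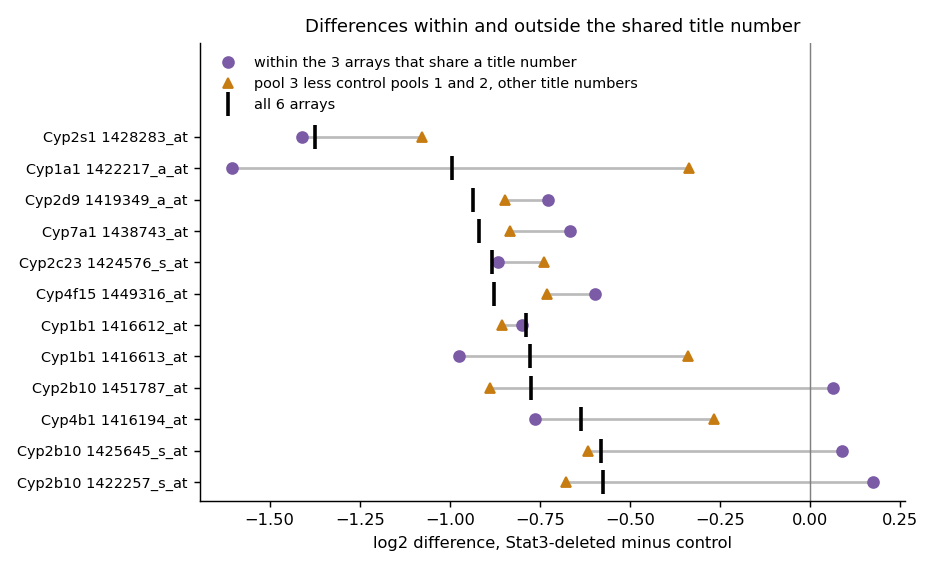
Log2 difference (horizontal axis, Stat3-deleted minus control) of the 9 probe sets lower without FDR and the 3 of Cyp2b10, for all 6 arrays (black bars), within the 3 arrays that share a title number (purple circles) and for Stat3-deleted pool 3 less control pools 1 and 2 (orange triangles). The 9, which were chosen for being lower over the same 6 arrays, range from -1.60 to -0.27, and the purple circles of Cyp2b10 lie between 0.06 and 0.17.

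P450 genes of a subfamily stand side by side in the genome, and the members formed 7 such clusters of 4 or more genes. The Cyp2 cluster on chromosome 7, with Cyp2s1, Cyp2b10, Cyp2b13, Cyp2b9, Cyp2b19, Cyp2g1, Cyp2a12 and Cyp2f2, had a median of -0.53, and 9 of its 10 probe sets were below 0, though only Cyp2s1 passed. Its median was 0.00 within the shared title number and -0.39 for the other arrays. The cluster on chromosome 19, of Cyp26a1 and the Cyp2c genes other than Cyp2c23, gave -0.32. Its median was 0.04 within the shared title number and -0.80 for the other arrays. This cluster too was thus not lower among the arrays that share the number. Cyp2c23, on chromosome 19 but outside the cluster, gave -0.88, with -0.87 within the shared number. The cluster of Cyp4a, Cyp4b1 and Cyp4x1 on chromosome 4 gave -0.47, with -0.28 and -0.23 for the parts. The other 4 medians were -0.13 for Cyp2d on chromosome 15, -0.13 for Cyp3a on chromosome 5, -0.10 for Cyp2j on chromosome 4 and 0.08 for Cyp4f on chromosome 17. They lay within the 25th to 75th percentile of single probe sets, -0.29 to 0.27. Medians of several probe sets spread less than single ones, so that this range does not set these clusters apart from the others. Cyp2b and Cyp2c relatives can share probe sequence, so that probe sets within a cluster are not independent readings.

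The stretch of 250 bases before the start site was read for motifs of STAT factors, AHR and the TATA-binding protein. The reason was that 8 genes were lower at the unadjusted threshold, though none of them passed the FDR. The sequences are those of RefSeq on GRCm38.p6, which gives a start for 51 of the 72 genes. The STAT motif TTCNNNGAA, searched on both strands as were the others, occurs in 7.02% of 32851 mouse promoters and in 5.17% of 58 P450 promoters, those of Cyp4b1, Cyp2j11 and Cyp4f13. The core GCGTG occurs in 28.2% and 22.4%, and the letters TATAAA in 12.4% and 32.8%. Of the 8 lower genes, 6 have a promoter in the table, and 1 of these holds the STAT motif, 2 the core and 2 TATAAA. The 4 promoters below are shown because they belong to the gene with the largest difference, to the gene with a STAT motif and to the pair of AHR targets; they read 5′ to 3′ on the gene's strand and end at the base before the start, with matches to the 3 motifs in capitals.
Cyp2s1: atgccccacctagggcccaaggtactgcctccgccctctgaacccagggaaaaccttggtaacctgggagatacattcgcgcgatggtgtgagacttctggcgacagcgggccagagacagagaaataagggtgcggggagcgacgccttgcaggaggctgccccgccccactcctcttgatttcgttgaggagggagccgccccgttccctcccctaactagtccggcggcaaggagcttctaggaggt
Cyp4b1: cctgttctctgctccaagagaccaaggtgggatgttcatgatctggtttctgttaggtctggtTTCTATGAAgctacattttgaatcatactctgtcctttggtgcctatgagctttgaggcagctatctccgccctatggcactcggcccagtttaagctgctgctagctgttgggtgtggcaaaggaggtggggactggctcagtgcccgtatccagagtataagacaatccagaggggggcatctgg
Cyp1a1: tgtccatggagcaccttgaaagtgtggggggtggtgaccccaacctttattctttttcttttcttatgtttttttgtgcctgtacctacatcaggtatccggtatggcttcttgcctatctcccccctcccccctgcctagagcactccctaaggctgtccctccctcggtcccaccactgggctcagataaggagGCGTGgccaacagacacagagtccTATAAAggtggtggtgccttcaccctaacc
Cyp1b1: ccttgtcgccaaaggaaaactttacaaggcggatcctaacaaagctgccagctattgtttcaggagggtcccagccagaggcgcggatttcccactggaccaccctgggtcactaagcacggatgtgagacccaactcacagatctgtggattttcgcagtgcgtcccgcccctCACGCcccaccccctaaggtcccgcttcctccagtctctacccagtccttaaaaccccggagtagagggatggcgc
They lie at chr7:25816526-25816775, minus strand, at chr4:115647722-115647971, minus strand, at chr9:57697363-57697612, plus strand, and at chr17:79715062-79715311, minus strand. Cyp2s1 holds none of the 3 motifs in this stretch. Cyp4b1 holds its STAT motif 187 bases before the start. Cyp1a1 holds the letters GCGTG 54 bases and TATAAA 30 bases before the start. Cyp1b1 holds GCGTG 76 bases before it on the opposite strand, where it reads CACGC. A match is a run of letters, and binding at these sites was not measured here. The bases beside GCGTG were not compared with a full xenobiotic response element, and sites further than 250 bases from the start were not read.

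The partners of P450 enzymes that were measured here showed no call, but the P450 reductase Por was not among them. Of 19 listed genes for electron donors and for the making and breakdown of haem, 16 were measured. At the unadjusted threshold by limma, 0 were lower or higher, beside 5.56% and 2.19% of all genes. The median was -0.17 with 12 of 16 below 0, beside -0.08 and 10782 of 18193 for all genes. Alas1, the first enzyme of haem synthesis, gave -0.27 (SE 0.30), Fdx1, the ferredoxin of mitochondrial P450s, 0.44 (SE 0.27), and Cyb5a, which passes electrons to microsomal P450s, -0.14. Of 26 transcription factors that act on P450 genes, 2 were lower and 0 higher (7.69% and 0.0%, near the 5.56% and 2.19% of all genes), with a median of -0.10. Foxa2, a forkhead factor of airway epithelium and liver, read 2312.2, 4108.8 and 4809.6 in Stat3Δ/Δ pools and 6549.4, 6064.1 and 8926.6 in control pools, without overlap, and gave -0.98 (SE 0.35, limma adjusted p = 0.532). The other, the bile acid receptor Nr1h4, was dim and gave -0.87. PXR (Nr1i2) and CAR (Nr1i3) were dim as well, at signals of 64.6 to 269.2 and 13.8 to 50.3.

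Other enzymes that handle foreign compounds included 6 that were lower and 0 that were higher, out of 47 measured of 54 listed (12.8% and 0.0%, beside 5.56% and 2.19% of all genes). Their median was -0.23 with 33 below 0, beside -0.08 and 10782 of 18193 for all genes. Aldh3a1, an aldehyde dehydrogenase that is itself inducible through AHR, read 1467.6, 1685.5 and 2721.5 in Stat3Δ/Δ pools and 7419.4, 4471.9 and 6975.6 in control pools and gave -1.67 (SE 0.34, limma adjusted p = 0.448). The glutathione transferase Gsta2 gave -1.15, the carboxylesterase Ces1g -1.05, the sulfotransferase Sult1c2 -1.01 and the retinal dehydrogenase Aldh1a1 -0.67, and the carbonyl reductase Cbr3 lay between the last pair. All but Ces1g separated the groups on every array. Of 3 P450 enzymes whose symbols the rule does not match, prostacyclin synthase Ptgis was lower at -1.41, while Cyp51, the sterol demethylase of cholesterol synthesis, gave -0.48 and thromboxane synthase Tbxas1 -0.18.

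**Figure D5:**
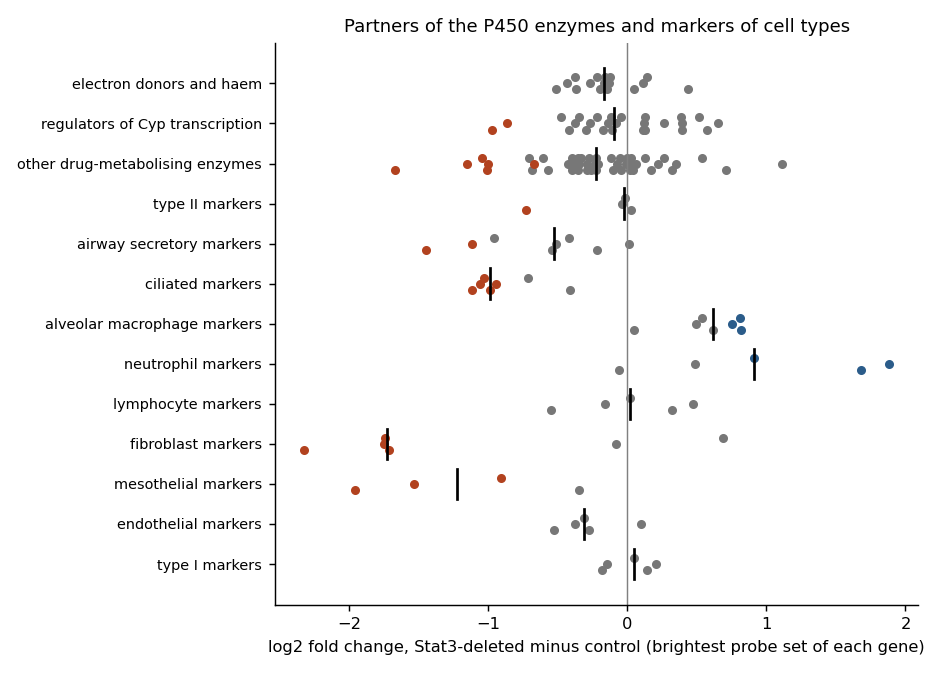
Log2 fold change (horizontal axis, Stat3-deleted minus control) of the genes in 3 lists of P450 partners and 10 lists of cell type markers, each gene by its brightest probe set, with black bars at the medians; red points are lower and blue points higher at the unadjusted threshold of p 0.05 and 1.5-fold. Ciliated, fibroblast and mesothelial markers have medians of -0.99, -1.73 and -1.22, and macrophage and neutrophil markers of 0.62 and 0.91.

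Markers of the cells known to hold lung P450s moved in part with these values. Among 8 airway secretory markers, 2 were lower at the unadjusted threshold, the secreted protein Bpifb1 at -1.45 and the mucin Muc5b at -1.12. On every array 4 were lower, beside 1663 of all 18193 genes, and the median was -0.53, beside -0.08. Scgb1a1, the marker of this list with the highest signal, gave 0.01 and was the only 1 above 0. Quantile normalization brings the brightest probe sets of all arrays to nearly the same values, so that this value cannot show a difference. Its deposited signals were 130318.7, 125145.7 and 159179.5 in Stat3Δ/Δ pools and 154710.2, 136326.0 and 149688.6 in control pools, and overlapped. The same limit holds for the bright Sftpc, Sftpb and Sftpa1. Scgb3a2 gave -0.22 and did not pass. The summed signal of the 8 secretory markers ran from 228080 to 330900 on Stat3Δ/Δ arrays and from 299474 to 408916 on control arrays. It follows mainly its brightest members, Scgb1a1 (mean signal 142600) and Scgb3a2 (84210). Of 7 ciliated markers 5 were lower, of 6 fibroblast markers 4, and of 4 mesothelial markers 3. Of 7 macrophage markers 3 were higher (42.9%), and of 5 neutrophil markers 3 (60.0%), beside 2.19% of all genes. The 4 type II markers summed to 329341 to 433856 on Stat3Δ/Δ arrays and 407781 to 444600 on control arrays, with a median of -0.03, and the lipid transporter Abca3 alone was lower, at -0.73. Type I (0.04), endothelial (-0.31) and lymphocyte (0.02) markers had no call. All listed markers had signals above 0, but this does not show that a cell type was present. Pdgfra read 10.2 in control pool 2, Muc5ac 20.7 in Stat3Δ/Δ pool 3 and Camp 22.9 in control pool 3. These lie below 69.9, the 20th percentile of all signals. RNA integrity was read as the log2 ratio of a control transcript's 3′ to its 5′ probe sets. For Actb the Stat3Δ/Δ pools had 0.39 ± 0.046 and the controls 0.64 ± 0.17 (SD, n = 3 each), and for Gapdh -0.41 ± 0.099 and 0.020 ± 0.26. The part of other cells and of RNA integrity in the P450 differences was not tested.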

How the data were processed

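RNA of alveolar type II cells from 3 Stat3Δ/Δ and 3 control pools was read on MOE430 arrays, 1 per pool. The deposited values are linear signal intensities that the authors made with MAS5, the tool in the submitters' processing notes, with every array brought to the same trimmed mean (1500, at a trim of 2%). The study's own tests used RMA values, which were not used here. Groups came from titles and source names. The triple-transgenic line stands in the description of all samples, controls included.

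Of 45101 probe sets, 64 controls were left out. Signals were raised by 69.9, their 20th percentile, put on the log2 scale and quantile normalized between arrays. All 45037 probe sets were fitted by group with limma 3.58.1 (R 4.3.3), with Benjamini-Hochberg adjustment across them. Thresholds were p 0.05, FDR 10% and 1.5-fold, as in the study, and the same without FDR, which the study allowed for genes with several changed probe sets. The fit was tested on simulated data. The 3 arrays per group limit the precision.

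Genes were taken from the platform annotation (34945 probe sets name 1 gene, 932 several and 9160 none), and all 72 P450 symbols matched RefSeq. Clusters join members less than 1500 kb apart. Roles were assigned from general knowledge. The members, gene lists and tests were chosen with earlier results of these data known. Named were all genes past the unadjusted thresholds, P450s in the study's supplement, the 3 genes with the highest signal in each role, and genes with opposed probe sets past the fold. Genes of other lists were named after their values were seen. Alternatives changed the pseudocount, normalization, filter, test, variance model, array weights, blocks, choice of probe set and arrays used. Python 3.11.15 was used for tables (pandas 2.3.3, numpy 2.4.6, scipy 1.17.1) and plots (matplotlib 3.10.9).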

Additional observations from a re-analysis of the deposited data

How the results depend on the processing

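No P450 probe set passed the FDR under any alternative. The shares of all probe sets at the same setting are given in brackets. The count lower without FDR, 9 of 95, was 4 with the median signal as pseudocount (1.81%) and 4 by the methods' t-test (2.7%). It was 3 with a block for the number that opens the title (3.06%). With 1 array left out it ran from 4, without Stat3Δ/Δ pool 2 (3.38%) or control pool 2 (3.16%), to 13, without Stat3Δ/Δ pool 3 (5.28%). It was 5 without control pool 1 (3.17%). The count higher, 0, was 2 without normalization between arrays (5.15%), 1 with array weights (6.46%) and 2 with the title number as a block (3.09%). With 1 array left out it ran from 0 to 3, the latter without control pool 1 (2.92%). The family's median, -0.15, was -0.30 over brighter probe sets only and from -0.21 to -0.12 with 1 array left out. Centring the arrays on their medians moved the median of all probe sets to -0.10 and that of the P450s to -0.24, and no normalization moved them to 0.04 and -0.10.

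With the replicate number as a block, 7 P450 probe sets were lower and 0 higher, beside 3.32% and 3.3% of all probe sets. The median was -0.15. Same-numbered pools did not deviate together from their group means (correlations of -0.08, -0.01 and -0.23). With 3 pools in each group, this cannot show whether they share more than a number.

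Over all 95 P450 probe sets, 26 changed sign with the title number as a block, and 8 of these had a size above 0.3 in the 6 arrays: the 3 of Cyp2b10 and those of Cyp2c38, Cyp4x1, Cyp2c50, Cyp2c29 and Cyp2c54 (named after their values were seen), the last 5 at 0.0366, 0.448, 0.198, 0.0305 and 0.373. Among the genes named by rule, Cyp2b10 gave 0.0893, 0.173 and 0.0621, Cyp11b1 0.251, Cyp20a1 0.103, Cyp26a1 0.318, Cyp39a1 -0.219 and Cyp4f18 -0.0455. Cyp26a1 was 0.00578 without normalization. Cyp27a1 was -0.00429 with the median signal as pseudocount, -0.0211 with centred arrays and -0.066 with array weights. Cyp39a1 was -0.0909 with centred arrays, and Cyp2r1 was 0.152 with array weights. With 1 array left out, Cyp11b1 ran from -0.407 to 0.229, Cyp26a1 from -0.35 to 0.154, Cyp27a1 from -0.164 to 0.175, Cyp2r1 from -0.554 to 0.0781, Cyp39a1 from -0.043 to 0.169 and Cyp4f18 from -0.000464 to 0.423. The cause was not tested. The number of arrays and low signals limit what these values can resolve.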
